A study of Mus musculus with 22 samples.

Results

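The 9 genes described here mark the oligodendrocyte lineage, the cells that wrap axons of the central nervous system in myelin. They were chosen by name: 6 genes of the myelin sheath (Mbp, Mog, Mag, Mobp, Cnp and Opalin) and 3 genes of the lineage (Olig1, Olig2 and Pdgfra). All 9 were found by their Ensembl identifiers among the 34585 entries of the count tables. RNA was sequenced from 22 tissue samples of C57BL/6 mice: thymus of 4 Tol and 4 WT mice, cerebrum of 4 Tol mice and of 4 WT mice, and cerebellum with 2 Tol against 4 WT samples. Tol mice were heterozygous for the Tol transgene, an open reading frame of shuffled reporter protein fragments under the CAG promoter placed 3′ of Col1a1, and WT mice were littermates without it. The study asked whether this transcript changed expression in brain and thymus. The labels give no age or sex and name a tissue only, and do not say which part of the cerebrum or cerebellum was taken.

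Oligodendrocytes arise from progenitors that carry the receptor Pdgfra and the transcription factors Olig1 and Olig2. As the cells mature they switch on the proteins of compact and periaxonal myelin. Myelin basic protein (Mbp) and Mobp hold the inner faces of the membrane together, Mog sits on the outermost surface, Mag faces the axon, Cnp keeps cytoplasmic channels open, and Opalin is a membrane protein of mature oligodendrocytes. Mbp and Mog are also the classical autoantigens of experimental autoimmune encephalomyelitis, so their level in thymus, where T cells meet self-antigens, has been of long interest. Fewer cells of a type and less RNA per cell cannot be told apart in these bulk samples.

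In GRCm38, with GENCODE vM21 annotation, Mbp (ENSMUSG00000041607) lies at chr18:82475146-82585637 on the + strand, Mog (ENSMUSG00000076439) at chr17:37010743-37023398 on the - strand and Mag (ENSMUSG00000036634) at chr7:30899176-30914873 on the - strand. Mobp (ENSMUSG00000032517) lies at chr9:120149707-120181484, Cnp (ENSMUSG00000006782) at chr11:100574904-100591729 and Pdgfra (ENSMUSG00000029231) at chr5:75152292-75198215, all on the + strand. Opalin (ENSMUSG00000050121) lies at chr19:41061710-41077113 on the - strand, and Olig2 (ENSMUSG00000039830) and Olig1 (ENSMUSG00000046160) are neighbours on chromosome 16, at chr16:91225457-91228677 and chr16:91269772-91271933, both on the + strand. The counts are sums over whole genes, so the 16 annotated transcripts of Mbp, among them the golli forms known from thymus, are not separated. Cnp shares 154 exon bases with Dnajc7 on the other strand and Mobp 79 with Gm38642 on its own. Pdgfra shares 456 with Gm42802 and 166 with Gm42803, and Olig1 157 with Gm15966, all on the other strand. Pdgfra also shares 30 with Mir7025 on its own strand. How the counting used strand is not given in the sources used here, and reads from these stretches are uncertain.

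Library totals ran from 14543698 to 34776973 estimated counts. The Tol transcript had at least 448 counts in each Tol library and at most 2 in any WT library. Summed over each set, markers of thymic epithelium, thymocytes, forebrain and cerebellum followed the tissue labels except in the library labelled cerebellum Tol 2. It held 10.6 CPM (counts scaled to library size with TMM factors, as used throughout) of the Purkinje cell gene Pcp2, against 115 to 285 in the other 5 cerebellum libraries, and 12.8 of the granule cell gene Gabra6, against 332 to 798. Of 7 thalamus and midbrain markers, it was the highest cerebellum library for 3, Tcf7l2 (274 CPM), Slc17a6 (516 CPM) and Lef1 (33.5 CPM), and the lowest for 3, Prkcd (16.5 CPM), Rora (226 CPM) and Zic4 (9.31 CPM). These last 3 were higher in every cerebellum library than in any cerebrum, where they reached at most 11.9, 210 and 2.16 CPM. They do not separate thalamus or midbrain from cerebellum here. Cerebellum WT 2 had 226 CPM summed over 8 hindbrain markers, against 6.53 to 61.7 in the other 5, and cerebellum WT 1 had 136 CPM of Tcf7l2. Slc17a6 was also at 184 CPM in WT 1 and 212 CPM in WT 2. The 7 cerebellar markers summed to 1877 CPM in cerebellum WT 2, against 3532 to 4194 CPM in the other WT cerebella. The thymocyte marker Cd4 had 684 and 245 counts in cerebrum WT 3 and Tol 4, against at least 15115 in any thymus. Results that rest on cerebellum Tol 2 or WT 2 are given with and without them.

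The sequences before the starts of 4 myelin genes are shown because all 4 belong to the myelin sheath but differed widely in their thymus level, Cnp being the highest and Mog and Opalin the lowest. They are RefSeq windows of GRCm38.p6, 5′ to 3′ on the gene's strand, covering bases 250 to 51 before the start. Capitals mark ACAAAG or its reverse complement CTTTGT, the core of sites bound by SOX factors such as Sox10, and both strands were searched.
Mobp: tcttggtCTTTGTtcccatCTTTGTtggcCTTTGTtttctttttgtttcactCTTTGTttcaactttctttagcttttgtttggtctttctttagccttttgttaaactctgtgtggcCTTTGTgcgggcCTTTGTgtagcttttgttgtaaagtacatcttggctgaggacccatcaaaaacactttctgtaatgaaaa
Cnp: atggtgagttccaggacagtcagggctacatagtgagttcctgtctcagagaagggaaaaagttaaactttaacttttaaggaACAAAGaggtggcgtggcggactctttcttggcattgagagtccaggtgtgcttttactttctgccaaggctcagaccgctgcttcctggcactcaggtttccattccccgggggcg
Opalin: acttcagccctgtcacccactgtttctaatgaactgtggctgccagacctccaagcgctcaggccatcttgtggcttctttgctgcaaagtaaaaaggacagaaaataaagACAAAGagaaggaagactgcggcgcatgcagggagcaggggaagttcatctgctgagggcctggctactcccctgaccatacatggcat
Mog: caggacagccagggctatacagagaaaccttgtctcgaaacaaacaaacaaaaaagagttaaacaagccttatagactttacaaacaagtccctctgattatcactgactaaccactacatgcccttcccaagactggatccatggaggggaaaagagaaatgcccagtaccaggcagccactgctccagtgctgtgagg
These windows lie at chr9:120149492-120149691 (+), chr11:100574689-100574888 (+), chr19:41077164-41077363 (-) and chr17:37023449-37023648 (-). The Mobp window held 6 matches, those of Cnp and Opalin 1 each, and that of Mog 0. Of 32851 windows of the same length, 13.6% held at least 1 match, and the Mobp window was the only 1 with 6 or more. CG pairs numbered 1 in Mobp, 5 in Cnp, 3 in Opalin and 1 in Mog, beside a median of 4 over all windows. A match is a description of letters, not a bound site.

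In WT cerebrum, Mbp was by far the highest of the 9 genes. Its level was 2173, 3212, 2851 and 2014 CPM in WT 1 to 4, a mean of 2563 ± 565 (SD, n = 4). Mobp followed with 880, 1290, 1125 and 788 CPM, and Cnp with 305, 374, 339 and 266 CPM. WT 2 and WT 3 were the high libraries for these myelin genes, and WT 1 and WT 4 the low ones. Mag stood at 178 ± 37.7 CPM, Mog at 61.4 ± 12.1 and Opalin at 21.6 ± 3.44 (SD, n = 4). Of the lineage genes, Olig1 reached 95.2 ± 10.1 CPM, Pdgfra 73.9 ± 12.9 and Olig2 25.4 ± 3.97 (SD, n = 4).

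Between genes, levels were compared per kilobase of merged exons. On that scale, WT cerebrum held 303 CPM per kb of Mbp, 149 of Mobp and 88.2 of Cnp, with no overlap between these neighbours over the 4 libraries. Olig1 at 44.0, Mag at 43.6 and Mog at 36.0 CPM per kb followed with overlapping ranges, and Olig2, Pdgfra and Opalin, at 10.02, 7.38 and 7.33, closed the order with overlapping ranges as well. The order in WT cerebellum began with the same 3 genes, at 464, 197 and 118 CPM per kb, but there every neighbouring pair except Olig1 and Olig2 overlapped. Cerebellum WT 2 was the highest WT cerebellum for all 9 genes and set the top of each range. Without it the order kept 9 of 9 ranks, and the overlaps were not assessed.

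**Figure D1:**
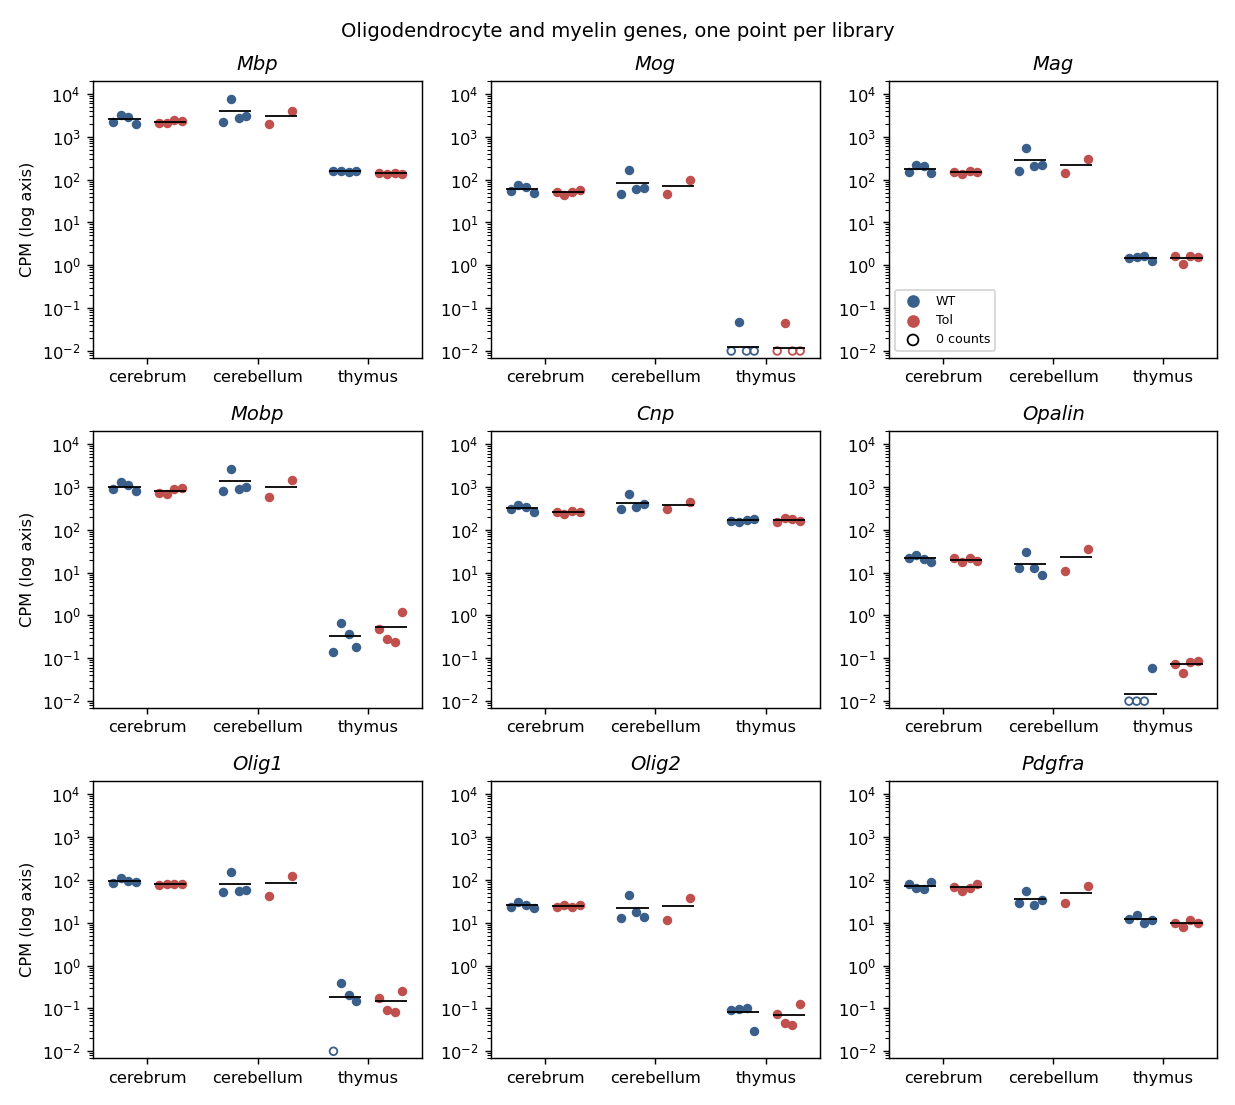
Level of each gene in every library, in CPM on a log axis, by organ and genotype (blue WT, red Tol, black line the group mean, open points 0 counts drawn at the bottom). Mbp and Cnp stay above 100 CPM in thymus, while Mog and Opalin fall to at most 3 counts there.

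In thymus the 9 genes ranged from high counts to near 0. Cnp was present at 162, 154, 167 and 177 CPM in WT thymus 1 to 4, and Mbp at 158, 155, 148 and 160 CPM. These levels lay close to each other in the 4 libraries and rested on 2852 to 6144 counts per library over both genotypes. Pdgfra, which fibroblasts and other mesenchymal cells also carry, came next with 12.03, 15.3, 10.1 and 11.4 CPM. The order per kilobase was Cnp (45.4 CPM per kb), Mbp (18.3), Pdgfra (1.22) and Mag (0.371), each without overlap with the next. Dividing by the mean transcript length in place of merged exons put Mbp before Cnp.

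The remaining myelin genes were scarce in thymus. Mag had 1.503, 1.60, 1.66 and 1.29 CPM in the WT libraries, from 140 counts in all, and was at or above 3 counts in each of the 8 thymus libraries. Mobp had 3, 14, 7 and 6 counts in WT and 19, 6, 6 and 28 in Tol thymus, so its groups overlapped. Opalin had 0, 0, 0 and 2 counts in WT and 3, 1, 2 and 2 in Tol libraries, which did overlap at 2. Mog, the surface antigen, was counted once in WT 2 and once in Tol 2, and was 0 in the other 6 libraries. A count of 3 corresponded to between 0.0897 and 0.155 CPM in WT thymus, and levels under it were not detectable at this depth.

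**Figure D2:**
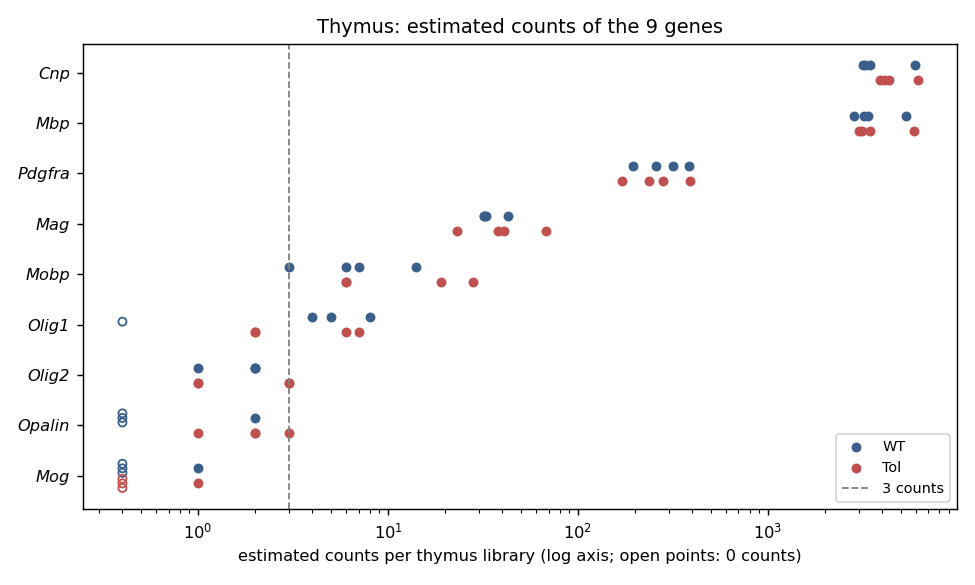
Estimated counts of the 9 genes in each of the 8 thymus libraries, on a log axis (blue WT, red Tol, open points 0 counts, dashed line 3 counts). Cnp and Mbp have at least 2852 counts in every library, and Mog reaches 1 count in 1 library of each genotype.

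Pooled over 4 WT thymi, Mog came to 1 count, or 0.0106 CPM (95% exact Poisson interval 0.000267 to 0.0588), beside 60.9 CPM in WT cerebrum. The cerebrum level was 5770 times the thymus level, with a counting interval from 1035 to 227970. For Opalin, 2 counts gave a ratio of 1021 (282 to 8435). For Mobp, 30 counts gave 3197 (2239 to 4739), for Olig1 17 counts gave 528 (329 to 907) and for Olig2 7 counts gave 341 (165 to 850). Between Tol thymus and Tol cerebrum the ratios were 5603 (1005 to 221365) for Mog, 279 (141 to 646) for Opalin, 1491 (1156 to 1959) for Mobp, 508 (317 to 872) for Olig1 and 342 (173 to 793) for Olig2. These intervals cover counting error only.

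All 9 genes were lower in WT thymus than in WT cerebrum by edgeR's quasi-likelihood test with Benjamini-Hochberg adjustment, as were 41.4% of the 16851 genes tested. The log2 differences ran from -0.94 for Cnp (SE 0.105, adjusted p = 1.15e-05) through -2.57 for Pdgfra and -4.02 for Mbp to -11.59 for Mobp and -11.82 for Mog. Fitted values for Mog and Opalin rest on a prior count and are no bounds. Against WT cerebellum, 9 of 9 were again lower, beside 41% of 17309 genes, and 9 of 9 without cerebellum WT 2. No thymus library reached the lowest brain library for any member. The 2 comparisons share the WT thymus libraries.

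Most genes of the related lists were lower in thymus too, though not all. Of 15 other myelin genes, 15 were lower in thymus than in cerebrum, among them the node protein Nfasc (log2 difference -6.42), Ermn (-8.58), the tight junction gene Cldn11 (-9.51) and Mal (-8.54), with a median of -5.84 beside 0.08 over all genes. Of 12 genes of myelin lipid synthesis, 9 were lower and 3 higher, Cers2 (0.78), Elovl1 (0.96) and Dhcr7 (0.55). Fa2h, which hydroxylates the fatty acids of myelin lipids, stood at -7.87, Ugt8a, which makes galactosylceramide, at -8.29, Gal3st1, which makes sulfatide, at -5.44, and the cholesterol gene Hmgcs1 at -2.55. Of 11 progenitor genes, 11 were lower, led by Gpr17 (-10.30), Ptprz1 (-5.00), Lhfpl3 (-9.77) and Sox6 (-5.04). Of 9 lineage transcription factors, 6 were lower, including Sox8 (-6.84), Zfp536 (-5.74), Sox10 (-8.64) and Myrf (-4.57), and 2 were higher, beside 45.1% of all genes higher. These calls are at an adjusted p under 0.05 by edgeR.

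Cells other than oligodendrocytes carry some of these genes, and markers of them were measured in the same libraries. The 8 Schwann cell markers summed to 50.8 to 60.7 CPM in WT thymus. Aire, which drives display of tissue antigens by medullary epithelium, stood at 18.7 to 27.3 CPM over the 8 thymi, and 0 of 12 epithelial markers were under 3 counts in any of them. The part of these cells in the thymus levels of the 9 genes was not tested.

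Between genotypes in thymus, 4 of the 9 genes passed the expression filter. None of the 4 passed the test at an adjusted p under 0.05, beside 0.105% of 16249 genes. That share was the Tol transcript and 16 other genes. Mbp was 146, 139, 140 and 133 CPM in Tol 1 to 4 and 148 to 160 CPM in WT, so the groups did not overlap, as was so for 11.8% of all genes tested. Its log2 difference, Tol against WT, was -0.15 (SE 0.0551, adjusted p = 0.135 by edgeR). By DESeq2 the adjusted p for Mbp was 0.0469, and by edgeR without thymus Tol 1 it was 0.0412, but those settings called 7.98% and 18.2% of all genes. At an unadjusted p under 0.05, edgeR counted 2 of the 4 genes, Mbp and Pdgfra, beside 24.4% of all genes. Cnp differed by 0.05 (SE 0.0776) and Mag by 0.02 (SE 0.202), both within the spread of the libraries. With no filter on low counts all 9 genes were tested and 0 called, with Opalin at 1.64 (SE 0.975, edgeR adjusted p = 0.443) and Mobp at 0.72 (SE 0.552, edgeR adjusted p = 0.572).

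Pdgfra was 9.70, 7.83, 11.5 and 9.97 CPM in Tol thymus against 12.03, 15.3, 10.1 and 11.4 in WT, with overlap (log2 difference -0.32, SE 0.139, edgeR adjusted p = 0.190). Connective tissue markers lay the same way: 8 of 8 had a lower fitted level in Tol thymus, with a median of -0.45, beside 48.6% of all genes. By edgeR's test 0 of 8 passed, 4 had an unadjusted p under 0.05 (24.4% of all genes), and DESeq2 called 4 (7.98% of all genes). Summed, these markers reached between 246 and 339 CPM in the Tol libraries, with a WT range of 309 to 494 CPM. In cerebrum, 6 of 7 of these markers had a higher fitted level in Tol (median 0.30), while Pdgfra was lower (-0.15). In cerebellum, 8 of 8 were higher, as was Pdgfra (0.51). Whether connective tissue accounts for the Pdgfra difference in thymus was not tested. In the related lists, the genes with the lowest p in thymus were Cldnd1 (-0.17), Hmgcs1 (0.34), Myrf (-1.01) and Sox6 (-0.87), and none passed edgeR's adjustment, while DESeq2 called 1 lipid gene.

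In cerebrum, all 9 genes had a lower fitted level in Tol than in WT mice, as did 51.4% of all genes tested. None of the 9 passed the test at an adjusted p under 0.05, beside 0.00641% of 15597 genes. That share was the Tol transcript itself, and 0 other genes were called. DESeq2 called none of the 9 and 1.21% of all genes. The median log2 difference was -0.26, beside -0.00489 over all genes. Most of the 9 genes varied together between these libraries, so their shared sign is not 9 separate observations. Olig1 was 74.1, 80.6, 80.1 and 79.4 CPM in Tol and 85.3, 109, 94.7 and 91.6 CPM in WT cerebrum, the only member whose groups did not overlap, beside 6.51% of all genes. Its difference was -0.28 (SE 0.0809, edgeR adjusted p = 0.323). Cnp was 257, 232, 276 and 266 CPM in Tol and 266 to 374 in WT (-0.31, SE 0.109, edgeR adjusted p = 0.396). Mobp differed by -0.33 (SE 0.167), Mag by -0.27 (SE 0.1401), Mog by -0.26 (SE 0.142), Mbp by -0.19 (SE 0.148) and Pdgfra by -0.15 (SE 0.144). Opalin and Olig2 differed by -0.10 (SE 0.124) and -0.02 (SE 0.113). At an unadjusted p under 0.05, 2 of 9 were counted, Olig1 and Cnp, beside 9.66% of all genes.

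The SD over the WT cerebra was larger than that over the Tol cerebra for all 9 members, for Mbp 565 CPM in WT and 125 in Tol. WT 2 and WT 3 had the 2 highest levels of Mbp, Mobp, Mag and Mog of the 8 cerebra, and the 2 other WT libraries lay within or below the Tol range of Mbp. Cerebrum Tol 4 and WT 3 also had 73.1 and 139 CPM of the striatal gene Drd1, against 8.99 to 15.1 in the other 6, and Dcn, a fibroblast gene, ran from 3.15 to 42.0 CPM over the 8. The part of dissection in the myelin levels was not tested. Among related genes, those with the lowest p in their lists included Trf (-0.35), Sox8 (-0.52) and Gpr17 (-0.31). None of these passed by edgeR, and DESeq2 called 1 gene of the 4 lists, Sox8.

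**Figure D3:**
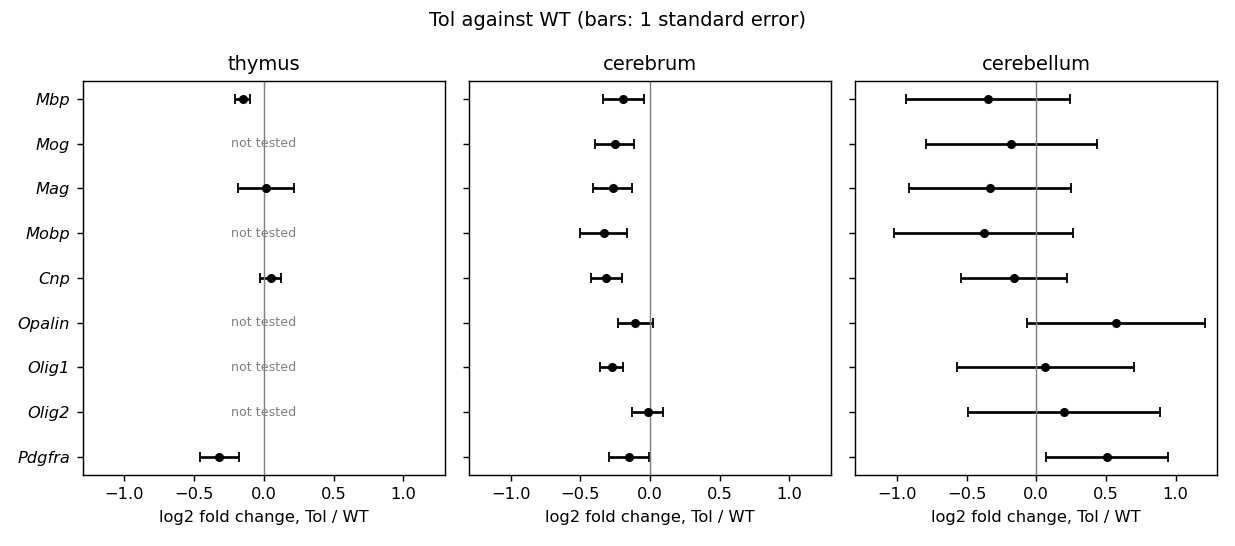
Log2 fold change of Tol against WT for each gene in thymus, cerebrum and cerebellum by edgeR, with bars of 1 standard error, and genes under the expression filter written as not tested. All 9 points lie below 0 in cerebrum, and the bars are widest in cerebellum.

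In cerebellum, none of the 9 genes passed for Tol against WT by edgeR or DESeq2, beside 0.006% and 0.06% of 16663 genes. The edgeR share was the Tol transcript itself, and 0 other genes were called by edgeR. An unadjusted p under 0.05 was found for 0 of 9 members and 3.17% of all genes. Mbp was 2026 and 4020 CPM in Tol 1 and 2, and 2231, 7558, 2815 and 3103 CPM in WT 1 to 4. WT 2 and Tol 2 were the highest for all 9 members. Over the median of the other 4 libraries, WT 2 had 3.00 times the Mbp, 3.16 times the Mog and 3.35 times the Olig2, while Tol 2 had 1.59 times the Mbp and 3.08 times the Opalin. The fitted differences ran from -0.38 for Mobp to 0.57 for Opalin, with SEs from 0.381 to 0.689. Leaving out Tol 2 put 9 of 9 below 0, and leaving out WT 2 put 9 of 9 above 0. Without Tol 2 the Tol group is 1 library, which the fit takes to vary like the WT libraries. Without both, 9 of 9 were below 0, with Mobp at -0.63 (SE 0.205) and Olig1 at -0.44 (SE 0.117), and no adjusted p under 0.05. A direction for Tol in cerebellum was not readable from these libraries. The difference between the Tol effects in cerebellum and cerebrum passed for none of the 9 by edgeR or DESeq2, with 0 at an unadjusted p under 0.05, beside 0% of 17131 genes by edgeR, 0.0409% by DESeq2 and 6.08% at an unadjusted p under 0.05.

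**Figure D4:**
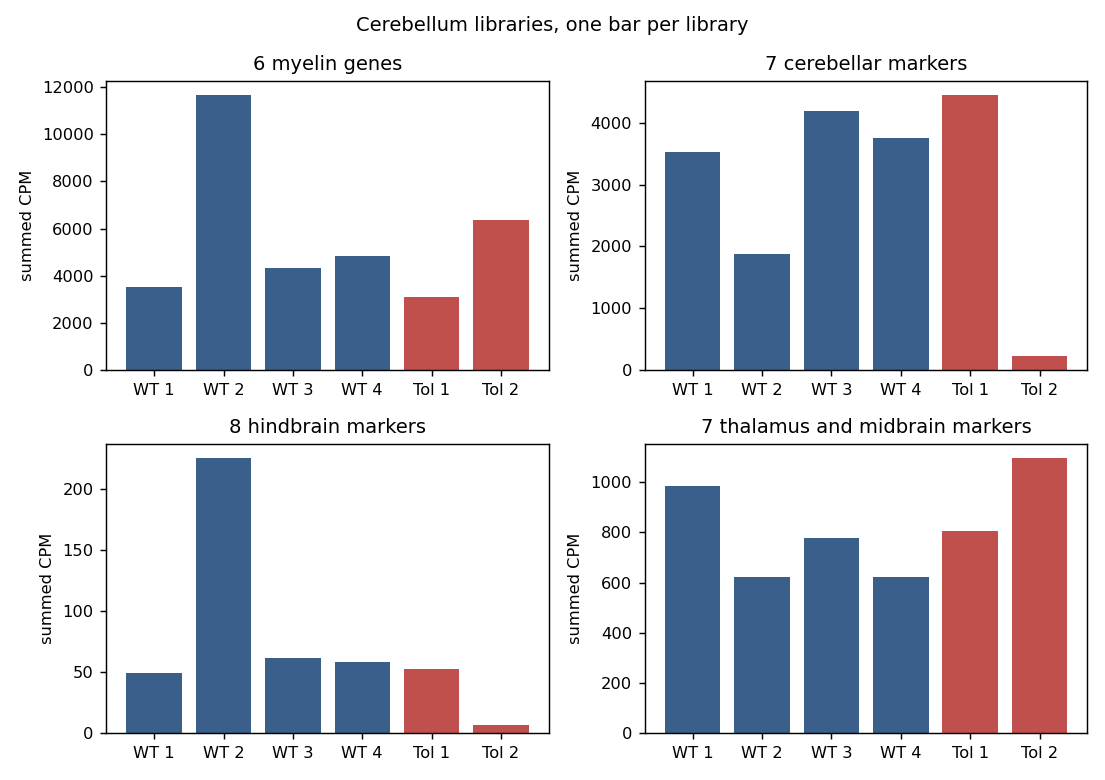
Summed CPM of the 6 myelin genes and of 3 sets of region markers in each of the 6 cerebellum libraries (blue WT, red Tol). WT 2 has the highest myelin and hindbrain sums, and the library labelled Tol 2 the lowest cerebellar sum, 227 CPM.

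Between the WT brain regions, Pdgfra was the only member called, lower in cerebellum than in cerebrum, where 49.8% of 15877 genes were called. It was 29.1, 53.7, 26.4 and 33.3 CPM in WT cerebella and 81.4, 63.2, 62.9 and 88.2 CPM in WT cerebra, with no overlap (log2 difference -1.06, SE 0.234, edgeR adjusted p = 0.00550). Mag at 0.67 (SE 0.371) and Mbp at 0.61 (SE 0.380) had the highest fitted differences, neither of which passed. Without cerebellum WT 2, 4 of 9 were called and all 4 were lower in cerebellum, beside 53% of 15993 genes. They were Pdgfra (-1.35), Opalin (-0.95, SE 0.179), Olig2 (-0.81, SE 0.161) and Olig1 (-0.80, SE 0.0953). The 5 remaining members lay between -0.20 and 0.12 there.

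Counts were also set against Mbp within each library, as counts per 1000 Mbp counts, which needs no library scaling. Mag kept to between 62.7 and 74.4 and Mog to between 20.3 and 25.003 over all 14 brain libraries. Opalin was 8.57 ± 1.28 in WT cerebrum and 4.23 ± 1.19 in WT cerebellum (SD, n = 4 each). Olig1 was 38.0 ± 5.67 and 20.7 ± 2.06, Olig2 10.02 ± 0.901 and 5.59 ± 0.874, and Pdgfra 30.7 ± 11.7 and 10.1 ± 2.48 in the same order. WT cerebrum and WT cerebellum did not overlap for 6 of the 8 ratios, these 4 with Mog and Mobp, beside 19.1% of 15876 genes set against Mbp the same way. That share is not a like baseline. Mbp ran from 2231 to 7558 CPM over the WT cerebella, and the ratio of a gene that does not vary with Mbp takes on that spread. Cerebellum WT 2, the library with the most Mbp, had 3.94 for Opalin and 20.6 for Olig1, both below every WT cerebrum. No p is attached to these ratios, which share Mbp.

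**Figure D5:**
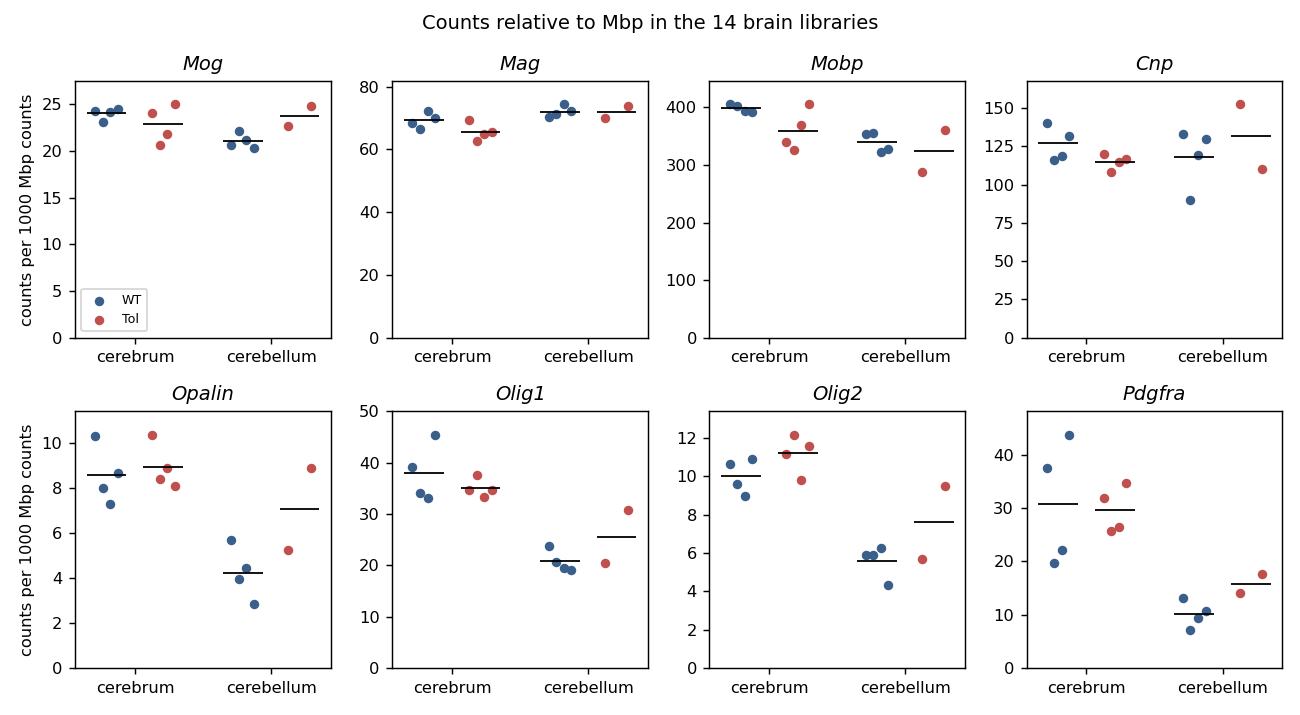
Counts of 8 genes per 1000 Mbp counts in the 14 brain libraries (blue WT, red Tol, black line the group mean, axes from 0). Mag and Mog are nearly level, while Opalin, Olig1, Olig2 and Pdgfra lie lower in WT cerebellum than in WT cerebrum.

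Related genes also differed between the WT regions, in both directions. Of 15 other myelin genes, 5 were called, 4 higher in cerebellum and 1 lower, beside the 49.8% of all genes. The gap junction genes Gjb1 (1.43) and Gjc3 (0.95), the iron carrier Trf (1.36) and Nfasc (0.35) were higher, and Tppp, a tubulin-binding protein, was lower (-1.19). Of 12 lipid genes, 1 was higher and 3 lower. Fdft1 (-0.90) and Hmgcs1 (-0.64) of the sterol pathway were lower and the ceramide synthase gene Cers2 (0.57) higher. Of 9 transcription factors, 2 were higher, Zfp536 (1.21) and Nkx2-2 (1.05), and 1 lower. Of 11 progenitor genes, 2 were higher, Lhfpl3 (0.95) and Ptprz1 (0.67), and 4 lower, Gpr17 (-1.03), Sox6 (-0.91), Matn4 (-1.22) and Cspg4 (-0.75). Without cerebellum WT 2, where 53% of all genes were called, 4 other myelin genes were higher and 3 lower, 1 lipid gene higher and 6 lower, 3 transcription factors higher and 3 lower, and 2 progenitor genes higher and 6 lower. Several of these genes are also used by neurons or astrocytes, and their source was not tested.

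Within cerebrum, the myelin genes varied together. The correlation of each gene, less its genotype mean, with the mean of the 6 myelin genes over 8 libraries was 0.98 for Cnp, 0.97 for Mbp, Mag and Mog, and 0.96 for Mobp, each of which enters that mean. Opalin, which also enters it, stood at 0.73. The lineage genes, which do not, stood at 0.77 for Olig2, 0.68 for Olig1 and -0.51 for Pdgfra. The 5 other genes closest to that mean were Ercc8 (0.97), Tmem88b (0.96), Ado (0.96), Foxj1 (0.95) and Zfp975 (0.95). Tmem88b ran from 62.9 to 95.0 CPM in cerebrum and reached 1.44 CPM at most in thymus. The highest thymus and cerebrum levels were 12.5 and 12.3 CPM for Ercc8 and 6.21 and 5.66 for Zfp975. They were 36.3 and 79.4 CPM for Ado and 2.45 and 9.07 for Foxj1. These are descriptions over 8 libraries that share depth and dissection.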

How the data were processed

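The deposited tables hold estimated counts (expected counts) per gene as whole numbers, which the authors made with Salmon 0.14.1 against GRCm38 transcripts plus the transgene's own. edgeR 3.9 is named in the submitters' processing notes. Libraries were poly(A)-selected and stranded. Of 34585 identifiers, 34465 matched a GENCODE vM21 symbol. Libraries were grouped by the labels, and 0 columns were left unused. No rounding was needed.

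Each comparison was fitted over all genes in R 4.3.3 with edgeR 4.0.16 (TMM, filterByExpr, quasi-likelihood test, Benjamini-Hochberg adjustment, threshold 0.05). The tests were tried on counts simulated independently for each gene, and no result here rests on the outcome. Levels are CPM with TMM factors over 22 libraries, and 3 counts were taken as the floor. No pair of libraries in a group agreed within sampling noise (31 pairs, with a chi-square of 4.98 to 208 per degree of freedom). The labels do not say which samples came from one mouse, and p-values measure the spread between samples.

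The members and lists were chosen with earlier results of these data known. Of each list, the text names at most 4 genes per comparison, those lowest in adjusted p under 0.05, or else the 1 lowest in p, and in cerebrum the 5 genes most like the myelin mean. The motif, the single marker genes, further members of counts of 4 or fewer, and the fit without both cerebellum Tol 2 and WT 2 were chosen after values were seen. Alternatives were DESeq2 1.42.0, its size factors, no filter, a minimum of 10 counts per library, robust moderation, the replicate block, 1 fit over 22 libraries, other gene lengths and leaving out each library. Some genes that the naming rule picks are not reported here.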

Additional observations from a re-analysis of the deposited data

Results flagged for a closer look

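Of 45 groups of 4 libraries, one per gene and group, 6 held a library far from its fellows on the log2(CPM + 1) scale. For continuous values chance gives about 1 in 20, or 2.25. That rate does not hold for Mog in either thymus group or Opalin in WT thymus. There all libraries but 1 had 0 counts, and such a group is always flagged. Olig1 in cerebellum WT 2 stood at 156 CPM, against 52.9 to 59.4 in the other WT cerebella. Mag in thymus Tol 2 stood at 1.06 CPM, against 1.61 to 1.69 in the other Tol thymi. The other 4 rest on 1 or 2 counts: Mog at 0.0460 CPM in thymus Tol 2 and 0.0484 CPM in thymus WT 2, Opalin at 0.0598 CPM in thymus WT 4 and Olig2 at 0.0299 CPM in thymus WT 4.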

How the results depend on the processing

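The counts of called members moved under 4 changes, whose cause was not tested unless stated. In thymus, Tol against WT went from 0 to 1 called member (Mbp) with DESeq2, where all called genes went from 17 to 1297, and over the fits without each library it ran from 0 to 1, being 1 without thymus Tol 1, where 2979 genes were called. With at least 10 counts in every library, WT thymus against cerebrum and against cerebellum each gave 4 in place of 9, since only 4 members were then tested. WT cerebellum against cerebrum ran from 1 to 4 over the fits without each library, 4 being without cerebellum WT 2. The order of levels per kilobase kept 5 of 9 ranks in WT thymus and 4 in WT cerebrum by mean transcript length, and 5 in WT cerebrum by the longest transcript, and over the fits without each WT cerebrum it kept 5 to 9. The other counts of called members stayed within 1.5 times.

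Same-numbered Tol and WT samples, from different mice, did not deviate together in every pair (correlations from -0.18 to 0.07 in thymus, -0.41 to 0.49 in cerebrum and -0.21 to 0.68 in cerebellum). With 2 Tol cerebella, their deviations from the group mean are mirror images, so the cerebellum values cannot decide on pairing. Between WT organs, same-numbered samples gave -0.0150 to 0.0586 for thymus and cerebrum and 0.0224 to 0.0837 for thymus and cerebellum. For cerebellum and cerebrum they gave 0.0159 to 0.12. The numbers were not taken as pairs. If organs came from the same mice, the organ tests ignore that pairing. The replicate block changed no count of called members, which stayed at 0 for Tol against WT in each organ and for the difference of the Tol effects, 9 for both thymus comparisons and 1 between brain regions. Under the block, Tol against WT in cerebellum turned to -0.32 for Olig1 and -0.18 for Olig2, and the difference of the Tol effects to -0.0328 for Mog and -0.0076 for Olig2. Without both cerebellum Tol 2 and WT 2, chosen after seeing the data, Tol against WT turned to -0.10 for Opalin, -0.44 for Olig1, -0.35 for Olig2 and -0.0636 for Pdgfra, and the difference of the Tol effects to -0.0077 for Mog, -0.13 for Olig1 and -0.30 for Olig2. Leaving out each library in turn, the log2 difference for Tol against WT in thymus ran from -0.0664 to 0.14 for Mag, from -0.0025 to 0.11 for Cnp. Leaving out each library in turn, the log2 difference for Tol against WT in cerebrum ran from -0.0795 to 0.0927 for Olig2. Leaving out each library in turn, the log2 difference for Tol against WT in cerebellum ran from -0.95 to 0.16 for Mbp, from -0.87 to 0.38 for Mog, from -0.99 to 0.17 for Mag, from -1.21 to 0.18 for Mobp, from -0.48 to 0.13 for Cnp, from -0.58 to 1.20 for Opalin, from -0.97 to 0.66 for Olig1, from -0.94 to 0.83 for Olig2, from -0.33 to 1.03 for Pdgfra. Leaving out each library in turn, the log2 difference for WT cerebellum against WT cerebrum ran from -0.15 to 0.63 for Mog, from -0.20 to 0.56 for Mobp. Leaving out each library in turn, the log2 difference for the Tol effect in cerebellum minus cerebrum ran from -0.73 to 0.39 for Mbp, from -0.58 to 0.67 for Mog, from -0.69 to 0.47 for Mag, from -0.84 to 0.55 for Mobp, from -0.13 to 0.48 for Cnp, from -0.45 to 1.32 for Opalin, from -0.66 to 0.95 for Olig1, from -0.89 to 0.86 for Olig2, from -0.15 to 1.19 for Pdgfra. The Mbp difference in thymus kept its sign, from -0.16 to -0.13. Depth limits Mog, Opalin, Olig1, Olig2 and Mobp in thymus, which the expression filter left out between genotypes. With no filter, and with 22 libraries in 1 fit, all 9 were tested and 0 called.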
